A study of Homo sapiens with 16 samples.

Results

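The clustered histone genes are the replication-dependent genes for the linker histone H1 and the core histones H2A, H2B, H3 and H4. They were taken as the protein-coding genes whose current symbols follow the cluster nomenclature (H1-1 to H1-6, H2AC, H2BC, H3C and H4C with a number) on chromosomes 1 and 6. This gave 68 genes of 19974 protein-coding genes on chromosomes 1 to 22 and X. By class they are 6 H1, 17 H2A, 18 H2B, 13 H3 and 14 H4 genes. They fall into 5 clusters, taken as runs of members no more than 500 kb apart. The largest holds 34 members over 559.5 kb (chr6:25726063-26285534, hg38), followed by 16 members over 86.4 kb (chr6:27807479-27893891). The next holds 5 members (chr6:27132316-27147562). On chromosome 1, 11 members lie in chr1:149782689-149887965 and 2 in chr1:228457364-228458558.

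ATAC-seq, in which the transposase Tn5 inserts adapters into accessible DNA, was done on IMR90, a line of human fetal lung fibroblasts. Cells carried, from a retrovirus, a fusion of truncated B-RAF to the estrogen receptor's hormone-binding domain, a kinase of the MAP kinase pathway that 4-hydroxytamoxifen switches on, and the libraries are labelled Raf-inactive or Raf-active, in normoxia or in hypoxia at 0.5% oxygen. Each of the 4 groups has 4 replicate libraries, 16 in all. The labels say neither how the inactive state was obtained, how long cells were treated, nor whether replicates came from different cultures, and every p-value here therefore rests on library-to-library spread that could be purely technical. In such bulk libraries, a change in fewer cells and a smaller change in all cells cannot be told apart. The 2 Raf comparisons and the 2 hypoxia comparisons share their groups with each other, so they are not independent.

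A replicating cell must double its histones with its DNA, and the clustered genes supply them in S phase. As a rule their S-phase transcripts are not spliced and end in a stem-loop instead of a poly(A) tail. Some members have longer annotated spans than most, such as H2BC4 (chr6:26113170-26123926) and H2BC5 (chr6:26158121-26171349), and so wider windows below. Transcription of the clustered genes is organised by NPAT at a nuclear compartment called the histone locus body. Cells that leave the cycle, as senescent fibroblasts do, shut these genes down, while unclustered variants such as H3.3 and H2A.Z are made throughout the cycle. Open chromatin at a start site says where Tn5 could insert, not how much RNA was made.

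A promoter sequence was listed for 63 members (RefSeq, GRCh38.p14), and H3C12, H4C3, H3C11, H4C1 and H2AC12 had none. In the 300 bases from 250 before the start to 50 after it, the CCAAT box (CCAAT, the site of NF-Y), searched on both strands like all motifs here, was found in 54 of 63 members, 85.7%, against 36.3% of 15813 promoters. It was present at 16 of 16 H2A, 18 of 18 H2B and 11 of 11 H3 starts but at 3 of 12 H4 starts. The TATA box (TATAAA) was found in 65.1% of members against 9.64% of all promoters. The octamer (ATTTGCAT, bound by POU2F1) was found in 41.3% against 1.70%, at 11 H2A and 14 H2B starts, and at 1 of 11 H3 and 0 of 12 H4 starts. Divergent H2A and H2B genes can count the same site. That of H2BC21, 46 bases before its start, is also that of H2AC20, 197 bases before its own on the other strand. The H3 match is at H3C4, whose listed promoter has the same matches at the same distances as that of H2AC7. The element AAACACA, known as the H1 box, was found at 6 of 6 H1 starts and in 4.25% of all promoters. At H1-1 the only match is on the other strand, 183 bases before the start. The other H1 genes have one on the gene's strand, 105 to 119 bases before it. Among other members, 1 H2A and 2 H3 genes match, on the other strand after the start. The AP-1 motif TGANTCA was found in 1 member, 1.59%, against 5.75%, and the hypoxia response core ACGTG in 14.3% against 23.7%. A match is a run of letters, not a shown binding site.

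The promoters below are those of 6 members on which the comparisons turn. Each gives the 200 bases before the start, 5′ to 3′ on the gene's strand, with the CCAAT box, the TATA box, the octamer and, for H1-2, the H1 box in capitals on either strand. They are H2BC5 (chr6:26157921-26158120, plus strand), H2BC8 (chr6:26216689-26216888, minus strand), H2BC11 (chr6:27132796-27132995, minus strand), H1-2 (chr6:26056471-26056670, minus strand), H2BC17 (chr6:27893225-27893424, plus strand) and H2AC25 (chr1:228457874-228458073, minus strand).
H2BC5: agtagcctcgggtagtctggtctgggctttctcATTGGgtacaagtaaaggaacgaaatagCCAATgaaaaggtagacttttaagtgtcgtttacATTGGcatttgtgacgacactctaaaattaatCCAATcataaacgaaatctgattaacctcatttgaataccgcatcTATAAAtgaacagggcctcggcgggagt
H2BC8: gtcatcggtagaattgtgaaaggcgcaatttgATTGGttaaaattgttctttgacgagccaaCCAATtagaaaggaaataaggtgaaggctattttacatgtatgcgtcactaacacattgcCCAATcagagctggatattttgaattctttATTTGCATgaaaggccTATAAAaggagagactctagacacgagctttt
H2BC11: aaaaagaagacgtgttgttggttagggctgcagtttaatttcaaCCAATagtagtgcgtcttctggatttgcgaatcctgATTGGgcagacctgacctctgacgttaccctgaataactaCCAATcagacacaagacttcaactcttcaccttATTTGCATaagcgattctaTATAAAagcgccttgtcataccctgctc
H1-2: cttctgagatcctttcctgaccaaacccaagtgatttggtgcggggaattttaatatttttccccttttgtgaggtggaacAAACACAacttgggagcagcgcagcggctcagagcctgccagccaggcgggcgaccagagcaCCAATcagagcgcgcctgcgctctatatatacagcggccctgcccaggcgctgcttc
H2BC17: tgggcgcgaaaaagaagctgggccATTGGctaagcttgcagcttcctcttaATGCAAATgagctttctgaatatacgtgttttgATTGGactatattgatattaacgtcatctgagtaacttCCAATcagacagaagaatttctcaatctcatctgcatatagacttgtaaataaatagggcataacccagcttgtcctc
H2AC25: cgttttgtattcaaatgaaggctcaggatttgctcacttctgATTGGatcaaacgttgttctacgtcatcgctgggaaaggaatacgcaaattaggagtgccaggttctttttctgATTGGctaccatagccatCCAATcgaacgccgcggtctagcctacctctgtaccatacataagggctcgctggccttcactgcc

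In H2BC8 and H2BC11, CCAAT boxes are followed by the octamer, 48 and 47 bases before the start, and by the TATA box at 32 and 28 bases. H2BC5 has 4 CCAAT boxes and a TATA box 28 bases before the start, with no exact octamer. H2BC17 has 3 CCAAT boxes, an octamer read on the other strand 149 bases before the start, and no exact TATA box. H2AC25, of the small cluster on chromosome 1, holds 3 CCAAT boxes and neither of the other motifs. H1-2 has its H1 box 119 bases and a CCAAT box 57 bases before the start.

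Most member promoters were open in every condition. Of the 63 members with a listed start, 53 had a peak summit within 500 bp of it in all 16 libraries, 84.1%, against 67.0% of 15812 protein-coding genes. Several divergent H2A and H2B genes share a promoter peak, so that the 53 members have 43 distinct promoter peaks. A peak was taken as shared where its height was equal in all 16 libraries. H3C4, with a listed start in the same region as H2AC7 and H2BC7, had their peak height in most libraries but was counted apart. The summit lay before the start in 45 of 53 members, at a median of 90.5 bases before it. Of the others, 9 had no promoter peak in any library, and H2AC19 had one in 1 library. Among these 9, H1-6, H2AC1 and H2BC1 are known as testis histones. H4C14, H4C15, H3C14, H3C15 and H2AC18, also without one, and H2AC19 have near-identical copies on chromosome 1. The promoters of H4C14 and H4C15 were identical in 300 of 300 bases. Reads from such copies cannot be placed uniquely, so the lack of a peak there is uncertain. H4C7 was the last of the 9.

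The total of distinct peaks in the members' windows, the gene body and 10 kb on each side, differed little between groups. Peaks shared by neighbours were counted once. The Raf-inactive normoxia libraries held 104, 108, 103 and 104 peaks, and the Raf-active normoxia libraries 101, 106, 103 and 108. In hypoxia the Raf-inactive libraries held 112, 108, 104 and 105, and the Raf-active 105, 107, 111 and 100. The ranges of the 4 groups overlap.

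The Raf-active lists are longer as a whole, with 199560 ± 6372 (SD, n = 4) against 176955 ± 1900 distinct peaks in normoxia and 201539 ± 3829 against 172688 ± 2439 in hypoxia. They also have a higher background pileup, the reads expected at a summit by chance, which ranged from 6.09 to 8.34 in Raf-active and from 3.01 to 5.02 in Raf-inactive libraries. Scaled by the sum of peaks over all gene windows, the members' total was 113 ± 3.19 without and 94.2 ± 3.25 with Raf activity in normoxia, 16.7% lower. In hypoxia it was 120 ± 2.93 and 98.6 ± 3.57, 18.0% lower. Scaled values are relative to all gene windows, whose mean sum Raf activity took from 145230 to 173920 in normoxia and from 139720 to 168060 in hypoxia. At equal list length the difference was -13.8 peaks in normoxia and -13.7 in hypoxia, against -18.8 and -21.7 with full lists.

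**Figure D1:**
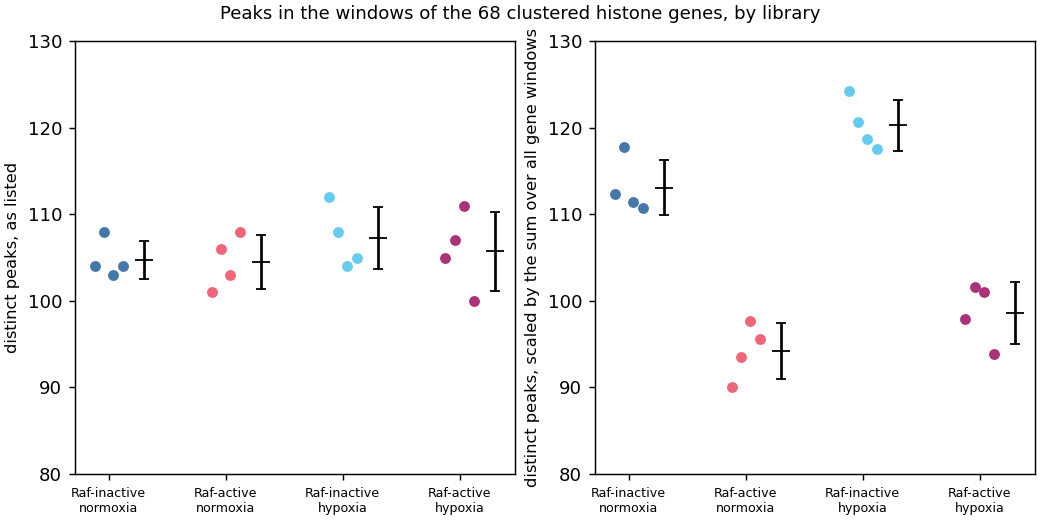
Distinct peaks in the windows of the 68 members for each of the 16 libraries, as listed (left) and scaled by the sum over all gene windows (right). Points are libraries, and bars show mean and SD of 4. The listed totals run from 100 to 112 and overlap between groups, while the scaled totals of Raf-active libraries lie below all those of Raf-inactive ones. The vertical axes do not start at 0.

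Peaks were then tested gene by gene with limma on log2(scaled peaks + 1), over the 15118 genes with a mean of at least 3 peaks, adjusting by Benjamini-Hochberg over all of them. Of the members, 60 of 68 entered. H3C13, H4C14, H2AC1, H2BC1, H2BC6, H3C8, H2BC10 and H4C8 were left out by that filter, among which H4C14 had 0 peaks in every library. Members that lie close together share most of their peaks and are not independent. In normoxia, 32 of 60 members fell with Raf activity and 4 rose. Over all genes tested 25.9% fell and 37.1% rose. The members' median log2 difference was -0.28, against 0.10 for all genes. In hypoxia, 33 fell and 5 rose, beside 26.6% and 33.5% of all genes, with medians of -0.23 and 0.05. Without scaling, 58 members entered, and 9 fell and 9 rose in normoxia, beside 16.3% and 56.7% of all genes, and 12 fell and 5 rose in hypoxia, beside 14.7% and 53.4%. For all genes the unscaled medians were 0.33 and 0.29, and 77.6% and 78.4% of the genes called were higher with Raf, against 58.9% and 55.7% with scaling.

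The largest fall was at H4C3 and H1-6, neighbours that share all their peaks. In normoxia both had 4, 4, 4 and 4 peaks without and 2, 2, 2 and 2 with Raf activity. In hypoxia they had 4, 4, 5 and 4 against 1, 1, 2 and 1. The groups do not overlap within either oxygen level. The log2 difference was -0.92 ± 0.107 (SE; limma, adjusted p = 1.28e-06) in normoxia and -1.43 ± 0.107 (limma, adjusted p = 1.07e-08) in hypoxia, and the interaction of Raf and oxygen was -0.51 ± 0.152 (limma, adjusted p = 0.028). With windows of 50 kb the interaction was 0.18 at H1-6 and 0.0252 at H4C3. A region of 332 bp 1220 bp from H1-6 was listed in 8 of 8 Raf-inactive and 0 of 8 Raf-active libraries.

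H2BC4 had 8, 7, 8 and 8 peaks without and 5, 4, 6 and 6 with Raf activity in normoxia, and 7, 7, 8 and 7 against 5, 5, 6 and 5 in hypoxia. The groups do not overlap, and the log2 differences were -0.72 ± 0.104 and -0.63 ± 0.104 (limma, adjusted p = 1.42e-05 and 6.06e-05). H1-2, which encodes a widely expressed linker histone, had 4 peaks in each Raf-inactive normoxia library and 3 in each Raf-active normoxia library. In hypoxia it had 4, 4, 3 and 4 against 2, 2, 3 and 3, ranges that touch at 3, with a log2 difference of -0.65 ± 0.0982 (limma, adjusted p = 2.61e-05). In hypoxia the 5 members H3C14, H2AC18, H4C15, H2AC19 and H3C15, which share all their peaks, also fell, with 6, 7, 5 and 4 against 4, 4, 3 and 4 peaks and a log2 difference of -0.66 ± 0.142 (limma, adjusted p = 0.000763). The ranges touch at 4, and these are the near-identical copies, whose counts are uncertain.

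Rises with Raf were at the far end of the 11-gene chromosome 1 cluster and around H2BC5. H2BC21 and H2AC20, divergent genes with the same peaks, went from 4 in each of the 8 Raf-inactive libraries to 7, 7, 7 and 7 with Raf activity in normoxia and 6, 6, 8 and 6 in hypoxia. The groups do not overlap, and the log2 differences were 0.46 ± 0.0735 and 0.36 ± 0.0735 (limma, adjusted p = 4.17e-05 and 0.000533). The neighbour H2AC21 had 4 against 7, 6, 7 and 6 in normoxia. Here a region of 631 bp 5612 bp from H2BC21 was listed in 8 of 8 Raf-active and 0 of 8 Raf-inactive libraries. By base pairs covered instead of peaks, these 3 genes stood at -0.09 in hypoxia. H2BC5 had 4, 4, 4 and 5 against 7, 6, 7 and 7 peaks in normoxia and 4, 3, 3 and 3 against 7, 4, 6 and 6 in hypoxia, with log2 differences of 0.35 ± 0.12 and 0.44 ± 0.12 (limma, adjusted p = 0.019 and 0.00459); in hypoxia the ranges touch at 4, and by base pairs covered the difference there was -0.23. H1-4, another linker histone gene, beside H2BC5, had 3, 2, 2 and 2 against 5, 4, 4 and 4 peaks in hypoxia (log2 difference 0.50 ± 0.153, limma, adjusted p = 0.00931), without overlap, and by base pairs covered -0.15.

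By cluster, the falls in normoxia lay on chromosome 6. There 16 of 28 tested members of the 34-gene cluster, 5 of 5 of the 5-gene cluster and 11 of 16 of the 16-gene cluster fell, and 0 of 9 and 0 of 2 on chromosome 1. Over all genes 25.9% fell, and neighbours in a cluster share peaks, so these counts are not independent. In hypoxia 16 of 28, 0 of 5 and 12 of 16 fell on chromosome 6, and on chromosome 1 the 5 near-identical copies of 9. Over all genes 26.6% fell there. Several of these falls come from the scaling alone. Every hypoxia library listed 4 peaks at H2BC13 and H2AC13, 5 at H3C12 and 6 at H2AC17 and H2BC17. Likewise each listed 7 at H2AC7 and 6 at H2BC7 and H4C5. H2AC16, H1-5, H3C11 and H4C13 had 5, 6, 5 and 6 without and 5, 6, 6 and 5 with Raf activity. By class, 5 of 6 H1, 6 of 16 H2A, 6 of 15 H2B, 8 of 11 H3 and 7 of 12 H4 members fell in normoxia, beside 25.9% of all genes. The 4 that rose in normoxia were 2 H2A and 2 H2B genes.

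**Figure D2:**
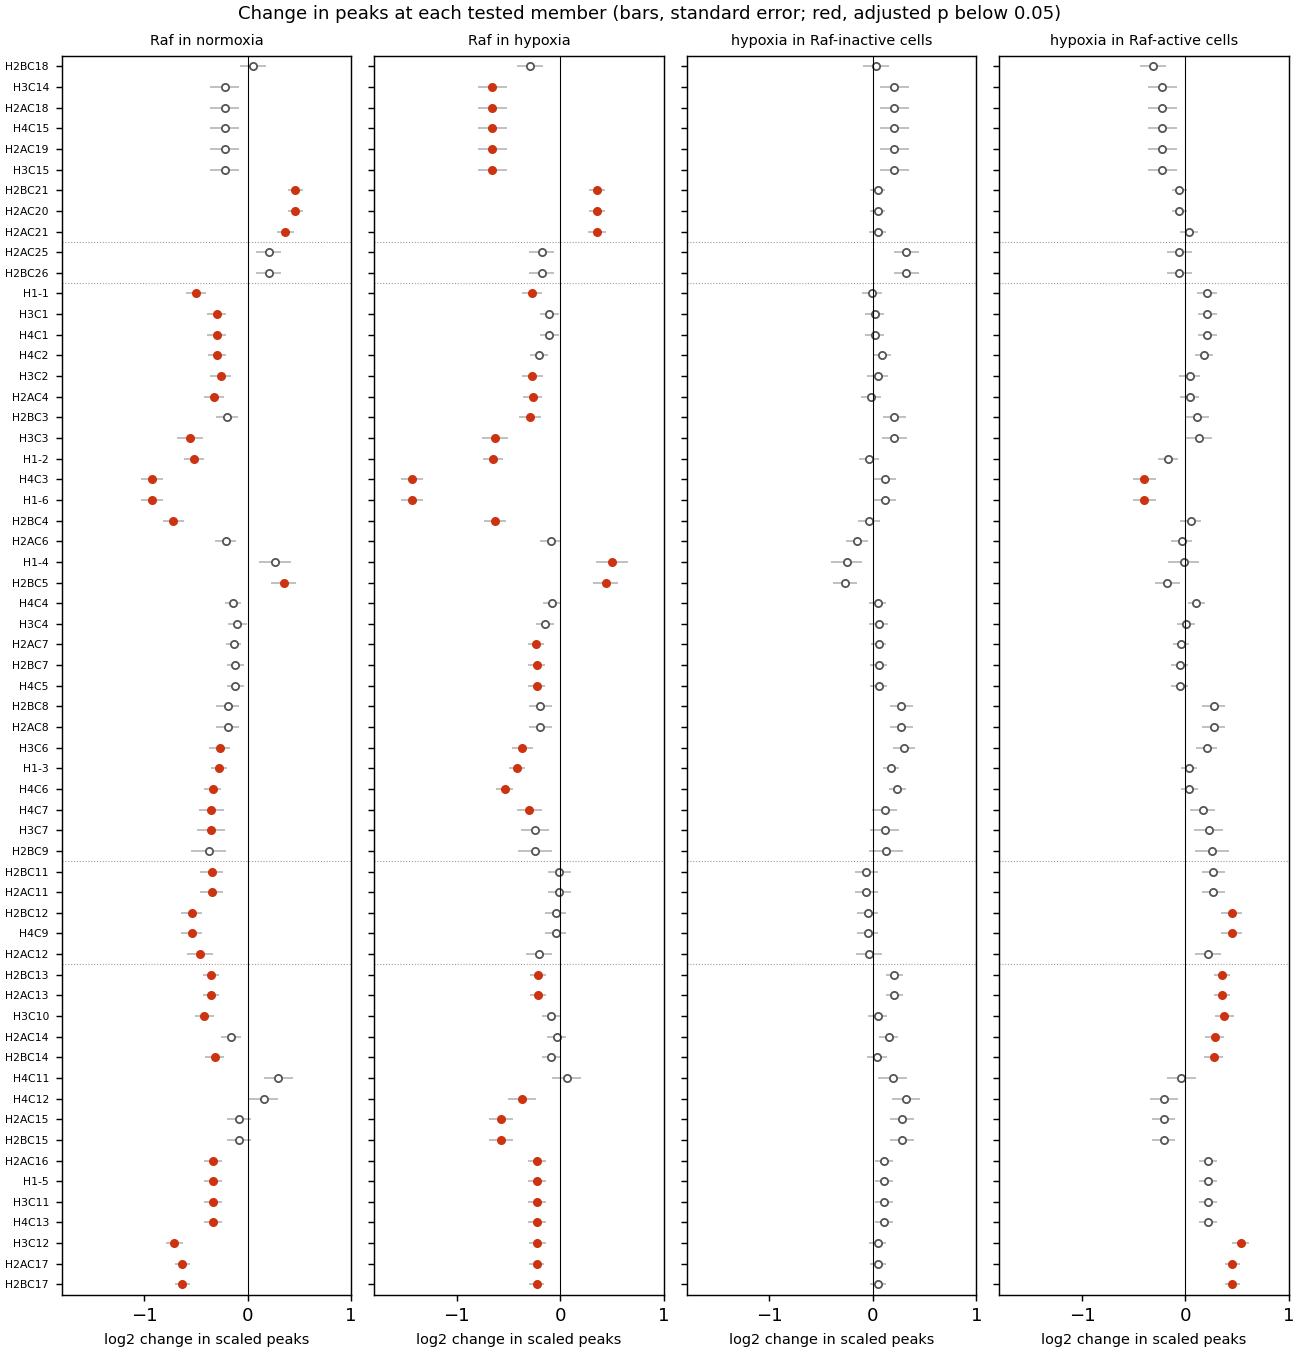
Log2 difference in scaled peaks with its standard error for the 60 tested members, in chromosome order from top to bottom, with dotted lines between clusters and 1 panel for each comparison. Red points have an adjusted p below 0.05 in limma. In the Raf panels red points on chromosome 6 lie left of 0 except H2BC5 and, in hypoxia, H1-4, while H2BC21, H2AC20 and H2AC21 lie right of it. In the panel of hypoxia in Raf-inactive cells 0 members are red.

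Stretches of 1 Mb around the clusters were tested in the same way, but with peaks scaled by their sum over all bins. Their scaled values are therefore not on the same scale as those of the gene windows. In limma on peaks per 1-Mb bin, where 87.6% of 2439 bins changed with Raf in normoxia and 87.2% in hypoxia, the bin of chromosome 6 from 25 to 26 Mb went from 92.0 ± 4.29 to 47.2 ± 3.62 scaled peaks in normoxia (log2 difference -0.95 ± 0.0502, adjusted p = 1.00e-11). Of the 34-gene cluster it holds H2AC1 and H2BC1. The bin from 26 Mb, which holds its other members, had 122 ± 4.67 and 122 ± 3.42, and in hypoxia 133 ± 2.00 and 118 ± 3.78 (log2 difference -0.16 ± 0.0349, adjusted p = 0.000308). The bin from 27 Mb fell in normoxia from 107 ± 3.42 to 78.1 ± 3.46 and in hypoxia from 111 ± 2.03 to 89.2 ± 3.65. On chromosome 1 the bin from 228 Mb rose in both, from 110 ± 2.21 to 148 ± 1.91 in normoxia. Of 8 other protein-coding genes within the clusters, 2 had enough peaks to test, and both fell: the iron regulator HFE by 0.90 ± 0.105 and TRIM38 by 0.43 ± 0.0981 on the log2 scale in normoxia.

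With hypoxia in Raf-inactive cells 0 of 60 members were called in limma, while 6.01% of all genes rose and 6.79% fell. An unadjusted p below 0.05 was found for 13 members. The share of all genes at that threshold is not given, so this count shows no excess among members. By base pairs covered, 38 of 60 rose and 0 fell, beside 10.6% and 11.7% of all genes by that measure, and without replicate 1 of Raf-inactive normoxia 6 were called by peaks. The members' median log2 difference was 0.10, against 0.00 for all genes. In Raf-active cells hypoxia raised 10 members and lowered 2, beside 13.0% and 14.1% of all genes. All 10 lie in the 5-gene and 16-gene clusters on chromosome 6, where 2 of 5 and 8 of 16 tested members rose.

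In normoxia H3C12 had 5, 5, 5 and 5 peaks without and 3, 3, 4 and 3 with Raf activity, but 5 in each of the 8 hypoxia libraries. The fall with Raf in normoxia was -0.71 ± 0.08 on the log2 scale (limma, adjusted p = 9.36e-07). The rise with hypoxia in Raf-active cells was 0.53 ± 0.08 (limma, adjusted p = 0.000127). The interaction was 0.49 ± 0.113 (limma, adjusted p = 0.00754). On the scaled values the Raf difference in hypoxia was -0.22 ± 0.08 (limma, adjusted p = 0.0237). It comes from the scaling alone, since the listed counts are equal.

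H2AC17 and H2BC17, next to H3C12, had 6 peaks in each normoxia library without Raf activity, 4, 4, 5 and 4 in those with it, and 6 in each hypoxia library. Their Raf difference in normoxia was -0.63 ± 0.0745, their hypoxia difference in Raf-active cells 0.45 ± 0.0745 and their interaction 0.40 ± 0.105 (limma, adjusted p = 1.47e-06, 0.000272 and 0.014). H2BC12 and H4C9, whose windows hold the same peaks, had 7, 7, 7 and 6 against 4, 6, 6 and 5 with Raf activity in normoxia, and 6, 7, 6 and 6 against 7, 7, 8 and 7 in hypoxia. Their interaction was 0.50 ± 0.145 (limma, adjusted p = 0.0258). In Raf-active hypoxia the listed counts of these members lie at or above those of Raf-inactive hypoxia. By base pairs covered the interactions of H3C12, H2AC17, H2BC17 and H2BC12 were below 0, from -0.14 to -0.08, and with peaks of at least 5-fold the Raf difference of H2AC17 and H2BC17 in normoxia was 0.10. The interaction was called in 9 members, 5 above 0 and 4 below, beside 9.16% of all genes in each direction and 18.3% in all. H2AC15 and H2BC15 were among the latter, with 8, 7, 8 and 8 against 5, 5, 8 and 6 peaks in hypoxia and an interaction of -0.49 ± 0.161 (limma, adjusted p = 0.0428), which was 0.13 with peaks of at least 5-fold.

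Single regions were then read. Peaks of all libraries were merged into regions, of which 121 lie in the members' windows, and 67 of these, 55.4%, were listed in all 16 libraries, against 22.2% of 355447 regions genome-wide. All 43 regions that hold a member's start were listed in all 16, and the 18 regions that changed lie away from the starts. A region was called gained or lost where 4 of 4 libraries of 1 group and 0 of 4 of the other listed it. With Raf in normoxia 6 regions were gained and 8 lost, beside 11.9% and 8.96% of all regions. In hypoxia 4 were gained and 4 lost, beside 11.6% and 7.42%. With hypoxia 0 and 0 changed in Raf-inactive cells, beside 1.26% and 1.34%, and 4 were gained and 0 lost in Raf-active cells, beside 3.11% and 2.58%. Of the 121 regions, 4.96% were gained and 6.61% lost with Raf in normoxia, below the shares of all regions. None of the 9 regions of the 5-gene cluster was gained or lost in any of these 4 comparisons, although its 5 members fell by peaks in normoxia.

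Of the 4 gained with hypoxia in Raf-active cells, 3 were lost with Raf in normoxia and listed in 12 of 12 other libraries. They are chr6:27895112-27895388 and chr6:27895533-27895820, 1221 and 1642 bp from H2BC17, and chr6:26126139-26126405, 1449 bp from H2AC6. Their highest fold enrichments over the authors' local background were 4.24, 4.14 and 4.61 in Raf-inactive normoxia and 2.99, 3.08 and 3.07 in Raf-active hypoxia. The fourth, chr6:27814164-27814524 in the window of H2AC14, was listed in 4 Raf-active hypoxia libraries and 0 others, at up to 1.92-fold. Among regions lost with Raf at both oxygen levels were chr6:26009873-26010467, 6565 bp from H1-1, with up to 9.64-fold in Raf-inactive normoxia, and chr6:26105861-26106192, 1220 bp from H1-6. Gained at both were chr1:149878217-149878847 near H2BC21 and chr6:26147961-26148446, 7883 bp from H1-4.

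**Figure D3:**
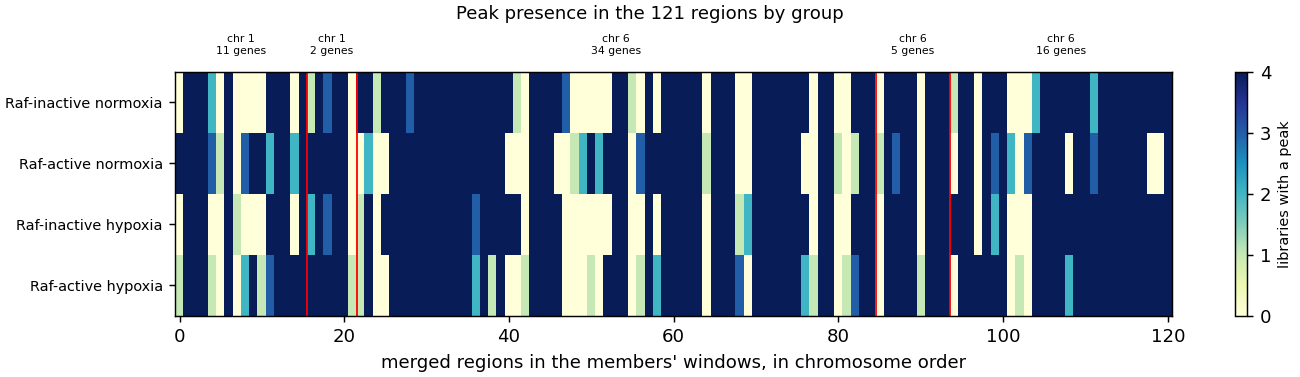
The 121 merged regions in the members' windows in chromosome order (columns), with the number of libraries of each group, 0 to 4, that list a peak there (colour), and red lines between the 5 clusters. Of the 121 columns, 67 are dark in all 4 groups. The columns near H2BC17 at the right end are light in Raf-active normoxia alone.

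The height of the promoter peaks was compared by rank, since the lists differ in length and in background pileup. For the 10589 promoters with a summit within 500 bp of the start in all 16 libraries, 53 of them members, the promoters of a library were ranked by the fold enrichment that the authors' caller listed, and the rank was turned into a normal score. A score difference of 1 is thus 1 SD of the promoters of a library. The member promoters ranked low by this measure, with median percentiles of 18.2 without and 19.1 with Raf activity in normoxia and 18.8 and 20.7 in hypoxia. In limma 12 rose and 8 fell with Raf in normoxia, beside 29.7% and 30.3% of all promoters. In hypoxia 13 rose and 11 fell, beside 27.4% and 29.0%. With hypoxia in Raf-inactive cells 4 rose and 11 fell, beside 16.3% and 16.5%, and in Raf-active cells 9 rose and 8 fell, beside 14.5% and 16.6%. The interaction was called for 7, 4 above and 3 below 0, with 10.6%, 11.9% and in all 22.5% of all promoters. By fold, the members thus moved in both directions, and with Raf at shares below those of all promoters.

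By score, H1-2 moved most in normoxia, and in hypoxia H4C9 did, followed by H1-2. The score stretches the ends of the ranking, so at the bottom, where H4C9 lies, few percentile points make a large difference. In normoxia the H1-2 percentile was 11.2, 15.8, 13.5 and 11.6 without and 44.4, 38.1, 51.6 and 51.5 with Raf activity, and 15.0, 14.6, 12.5 and 10.5 against 36.9, 44.5, 43.5 and 41.9 in hypoxia. The groups do not overlap, and the score differences were 1.04 ± 0.0851 and 0.91 ± 0.0851 (limma, adjusted p = 2.36e-08 and 1.19e-07). Its local background, as a percentile among all promoters, was lower in Raf-active cells, at 32.5 to 37.6 against 62.5 to 72.8 in normoxia, and fold is a ratio to that background. By the pileup described further on, H1-2 fell with Raf in hypoxia, by 0.42 ± 0.0658. H4C9 fell, from 11.1, 13.3, 8.57 and 8.15 to 0.586, 4.24, 1.81 and 2.58 in normoxia and from 10.7, 14.5, 14.0 and 10.2 to 1.17, 0.949, 1.23 and 1.61 in hypoxia, with score differences of -0.80 ± 0.124 and -1.09 ± 0.124 (limma, adjusted p = 2.92e-05 and 1.12e-06). H3C7, an H3 gene, and H2BC9 rose with Raf in normoxia by 0.63 ± 0.122 and 0.60 ± 0.0777, and H1-4 in hypoxia by 0.66 ± 0.0777, where by pileup H1-4 fell by 0.16 ± 0.0742. With hypoxia the H4 gene H4C2 fell by 0.48 ± 0.13 without and 0.56 ± 0.13 with Raf activity. With peaks up to 1 kb from the start these differences were 0.0397 and 0.028. H3C13 rose with hypoxia by 0.68 ± 0.124 in Raf-inactive cells. H3C7, H3C13 and H4C2 also lie at the bottom of the ranking. H3C7 went from percentiles of 0.609, 1.82, 0.581 and 1.77 to 8.23, 5.94, 3.87 and 2.42 with Raf in normoxia. In Raf-inactive cells H3C13 stood at 0.477 to 2.79 in normoxia and 5.09 to 6.79 in hypoxia. H4C2 stood there at 0.467 to 4.26 and 0.335 to 0.571.

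Because fold is a ratio to the local background, the pileup at each summit, the number of reads the caller piled up there, was recovered from the listed fold and p and ranked in the same way. This reading was added after the fold ranks had been seen. With Raf in hypoxia 46 of 53 member promoters fell in limma and 2 rose, beside 37.9% and 45.3% of all promoters, with a median score difference of -0.44 against 0.08. In normoxia 23 fell and 14 rose, beside 40.6% and 42.6%, with a median of -0.03 against 0.03.

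With hypoxia in Raf-inactive cells 35 of 53 rose and 0 fell, beside 23.0% and 22.4%, with a median of 0.28 against 0.00. In Raf-active cells 19 fell and 4 rose, beside 27.1% and 26.9%. The interaction was below 0 in 40 of 53 and above 0 in 0, beside 23.5% and 22.4% and in all 45.9%. Counted once per shared peak, 37 of 43 peaks fell and 1 rose with Raf in hypoxia, 29 rose with hypoxia in Raf-inactive cells and 33 had an interaction below 0. The median percentile of the members was 35.4 without and 32.0 with Raf activity in normoxia, and 44.6 and 26.3 in hypoxia. The percentile of the local background moved the same way, with medians of 67.6, 51.4, 79.3 and 47.5, and its part in the pileup ranks was not tested.

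**Figure D4:**
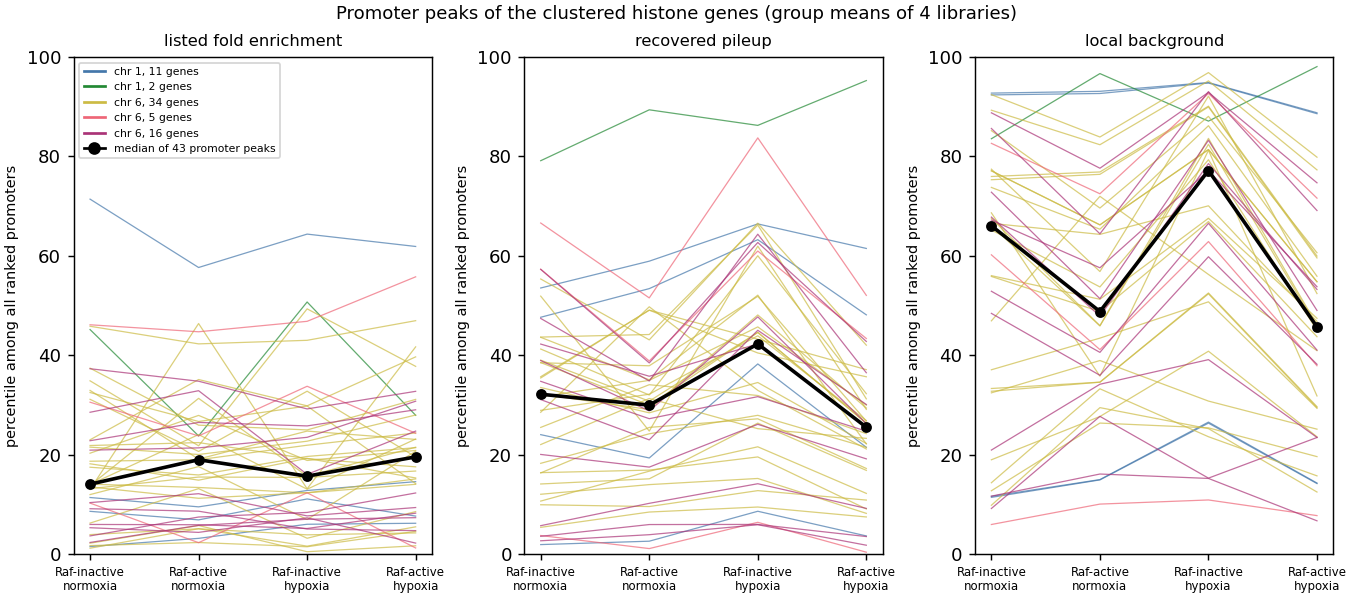
Mean percentile (of 4 libraries) of each of the 43 distinct member promoter peaks among all ranked promoters in the 4 groups, by listed fold (left), recovered pileup (middle) and local background (right), coloured by cluster, with the median in black. The pileup and background medians are highest in Raf-inactive hypoxia, and the fold medians show no such step. The peak of H2AC25 and H2BC26, of the cluster of 2 genes, is the top line of the middle panel.

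H2BC5 showed the pattern most plainly. In normoxia its pileup percentile was 51.4, 38.4, 47.6 and 37.2 without and 45.4, 44.9, 46.0 and 40.5 with Raf activity. In hypoxia it was 66.2, 64.3, 64.7 and 69.7 against 33.9, 30.9, 30.0 and 30.1. In normoxia the Raf groups overlap, and in hypoxia the Raf-active libraries lie far below. The interaction was -0.92 ± 0.107 (limma, adjusted p = 3.64e-07). Its window listed more peaks with Raf in hypoxia (log2 difference 0.44), while by base pairs covered the window stood at -0.23 and with peaks of at least 5-fold at -0.000558.

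H2BC11 and H2AC11, which share a divergent promoter, were at 58.9, 69.8, 68.6 and 69.2 against 48.1, 58.0, 48.1 and 52.0 with Raf activity in normoxia. In hypoxia they were at 85.8, 76.2, 87.3 and 85.6 against 54.1, 54.1, 52.7 and 47.4, without overlap. The Raf difference in hypoxia was -0.95 ± 0.0876 (limma, adjusted p = 1.66e-10), the largest among members after that of H4C9, which was -1.13 ± 0.0874 (limma, adjusted p = 5.27e-12). The percentile of H4C9 in hypoxia went from 4.21, 5.94, 8.91 and 6.55 to 0.467, 0.416, 0.297 and 0.392. H4C9 overlaps the span of H2BC12.

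H2BC8 and H2AC8 depended on oxygen for the direction. They rose with Raf in normoxia, from 31.7, 22.3, 28.0 and 32.2 to 50.4, 53.9, 49.0 and 45.8, and stood at 33.2, 35.6, 30.4 and 32.5 against 24.1, 19.7, 22.1 and 18.7 in hypoxia. Neither pair of groups overlaps. The fall in hypoxia was -0.36 ± 0.0734 (limma, adjusted p = 6.56e-05), and the interaction of -0.93 ± 0.104 was the largest of any member (limma, adjusted p = 2.33e-07). H2BC3 fell at both oxygen levels, in normoxia from 53.5, 44.9, 56.1 and 53.2 to 26.6, 28.6, 22.5 and 21.4 (score difference -0.73 ± 0.0713, limma, adjusted p = 4.45e-10).

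The small cluster on chromosome 1 went the other way. The shared peak of H2AC25 and H2BC26 was at 81.6, 81.3, 78.8 and 75.0 against 91.1, 91.9, 87.3 and 87.3 with Raf activity in normoxia. In hypoxia it was at 84.2, 85.3, 89.0 and 86.5 against 95.3, 96.0, 95.4 and 94.4, without overlap. These are the 2 members that rose with Raf in hypoxia (score difference 0.58 ± 0.0757, limma, adjusted p = 9.59e-08). By fold they fell with Raf, by 0.59 ± 0.0611 in normoxia and 0.60 ± 0.0611 in hypoxia, and their local background reached percentiles of 96.1 to 98.2 in Raf-active cells. By cluster, 24 of 28, 4 of 4 and 14 of 14 ranked members on chromosome 6, and 4 of 5 in the 11-gene cluster, fell by pileup with Raf in hypoxia. Over all promoters 37.9% fell. By class, the interaction by pileup was below 0 for 9 of 9 H4, 4 of 5 H1, 7 of 9 H3, 12 of 17 H2B and 8 of 13 H2A members. Over all promoters it was called below 0 for 23.5%.

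Genes that make and handle histones outside the clusters were read in the same tests. Over all genes 37.1% rose and 25.9% fell in peak number with Raf in normoxia, and 33.5% and 26.6% in hypoxia. Of 21 tested genes for histone gene transcription and the histone locus body, 8 rose in peak number with Raf in normoxia and 5 fell, shares near those of all genes, and in hypoxia 7 and 8. CASP8AP2, a scaffold of that body, fell from 7.56 ± 0.0753 to 3.58 ± 1.58 scaled peaks in normoxia and by 1.04 ± 0.172 on the log2 scale in hypoxia. Of 18 genes for histone mRNA 3′ end processing, 9 rose and 3 fell in normoxia and 7 and 3 in hypoxia. Of 22 chaperones, 10 rose and 1 fell in normoxia, and 7 and 1 in hypoxia. HIRA and UBN1, of the complex that deposits H3.3, rose by 1.18 ± 0.124 and 1.12 ± 0.127 in normoxia, while ASF1A, which hands over new H3 and H4, fell by 0.74 ± 0.129.

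Of 13 tested unclustered histones, 7 rose and 2 fell in normoxia, and 3 and 5 in hypoxia. H3-3B, which encodes H3.3, rose from 2.97 ± 0.524 to 6.77 ± 0.682 scaled peaks in normoxia, by 0.98, and by 0.96 in hypoxia. H2AZ2 rose by 0.75 and 0.83, and H2AZ1 fell by 0.74 in normoxia. By pileup rank 6 of 11 ranked unclustered histones rose with Raf in hypoxia and 4 fell, beside 45.3% and 37.9% of all promoters, and by fold rank 3 rose and 4 fell. Among 19 ranked chaperones 14 rose and 2 fell by pileup, but by fold rank 3 rose and 8 fell, beside 27.4% and 29.0% of all promoters.

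Markers of cell types were read beside these results. The windows of 10 fibroblast markers held 89 to 96 peaks without and 98 to 109 with Raf activity in normoxia, and 96 to 102 and 90 to 102 in hypoxia, and 4 of the 4 with a listed start had a promoter peak in all 16 libraries. By pileup rank these 4 fell with Raf in hypoxia. The windows of 5 neuronal markers held 42 to 54 peaks without and 107 to 138 with Raf activity, and 3 of the 3 with a listed start had a promoter peak in all 16. The windows of 6 endothelial markers held 73 to 82 without and 93 to 104 with Raf activity, those of 7 epithelial markers 24 to 29 and 32 to 39, and those of 6 blood markers 23 to 28 and 30 to 41, as listed and without scaling. Of the 2 epithelial markers with a listed start KRT5, and of the 3 blood markers with one PTPRC and GATA1, had no promoter peak in any library. The part of these differences in the results for histone genes was not tested.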

How the data were processed

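ATAC-seq peak lists of 16 libraries were used, 4 in each of 4 groups. The submitters' processing notes name hg38 as the build and MACS2, bedtools, deepTools, Picard, SAMtools, Bowtie2, cutadapt and FastQC as tools, in no order. Versions and settings are not given in the sources used here. Each deposited list gives for every summit the authors' score (from the q-value), fold enrichment over the local background (a ratio), and −log10 p-value and q-value, for 1 library at a time. The deposited lists hold 169287 or more distinct peaks, and read depth is unknown.

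Distinct peaks were those with a different interval; members and starts came from RefSeq tables. A peak belonged to a gene if a summit lay in the gene body or within 10 kb of it. Counts per gene were scaled to the mean sum over all gene windows, and counts per bin to the mean sum over all bins. Both were tested with limma 3.58.1 (R 4.3.3) on log2(scaled peaks + 1) with 4 group means. Genes needed a mean of at least 3 peaks, and bins at least 10. Promoter ranks within 500 bp of a start were tested as normal scores. Pileup and background were recovered from the fold, taken as (pileup + 1)/(background + 1), and the Poisson p, matching within 0.01 of −log10 p. Calls were at a Benjamini-Hochberg adjusted p below 0.05 over all features of a fit. Of these fits, the one by gene was run on simulated data, for Raf in normoxia, with independent normal values for each gene. Tied small counts and shared peaks were not simulated, so it does not test the calls under those conditions.

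Members with the largest called changes were named, at most 4 each way by peaks and 3 by rank. The members, lists and tests were chosen with earlier results of these data known, and the pileup ranks were added after the fold ranks had been seen.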

Additional observations from a re-analysis of the deposited data

Results flagged for a closer look

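In groups of 4 libraries, 76 were checked for a library far from the others, and 10 had one. Chance gives about 1 in 20 for normally spread values, but not for small counts with ties, so no excess is shown. By scaled peaks these were, in the 2-gene cluster on chromosome 1, replicate 3 of Raf-active normoxia at 6.64 (others 6.18 to 6.24) and replicate 3 of Raf-active hypoxia at 4.55 (others 6.53 to 6.65). All 4 Raf-active normoxia libraries listed 7 peaks there, so the first of these differs by the scaling alone. The Raf-active hypoxia libraries listed 7, 7, 5 and 7. On chromosome 6 they were replicate 2 of Raf-inactive normoxia in the 34-gene cluster at 63.2 (others 57.5 to 58.4), replicate 4 of Raf-inactive normoxia in the 5-gene cluster at 7.45 (others 8.64 to 8.72), and replicate 3 of Raf-active hypoxia in the 16-gene cluster at 25.5 (others 22.4 to 22.8). The listed counts behind them were 58 (others 54), 7 (others 8) and 28 (others 24). By pileup percentile they were H3C13 in replicate 4 of Raf-inactive hypoxia at 9.49 (others 8.25 to 8.41), and H1-4 in replicate 3 of Raf-inactive normoxia at 30.7 (others 36.7 to 37.5) and in replicate 4 of Raf-active normoxia at 53.5 (others 47.5 to 47.9). The peak of H2BC11 and H2AC11 was at 58.9 in replicate 1 of Raf-inactive normoxia (others 68.6 to 69.8) and at 76.2 in replicate 2 of Raf-inactive hypoxia (others 85.6 to 87.3).

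The effect of Raf differed between oxygen levels, by the interaction in limma, for several members. By peaks it was -0.51 at H4C3 and H1-6, 0.50 at H2BC12 and H4C9, -0.49 at H2AC15 and H2BC15, 0.49 at H3C12 and 0.40 at H2AC17 and H2BC17. These are 5 above and 4 below 0 of 60 members, beside 9.16% of all genes each way, so no excess is shown. By fold rank it was 0.41 at H1-4 (adjusted p = 0.0127), -0.38 at H2BC10 (0.0196), 0.38 at H2BC3 (0.035), -0.38 at H2BC9 (0.0184), 0.51 at H3C6 (0.0114), 0.38 at H3C8 (0.0496) and -0.46 at H4C12 (0.0295). These are 4 above and 3 below 0 of 53 members, beside 10.6% and 11.9% of all promoters, again no excess. By pileup rank it was below 0 for 40 of 53 members, beside 23.5% of all promoters. It was -0.93 at H2BC8 and H2AC8, -0.92 at H2BC5 and -0.74 at H4C11 (adjusted p = 3.47e-05), which shares 295 of 300 promoter bases with H4C12.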

How the results depend on the processing

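Limits: peak lists hold no read depth, promoters with weak signal can miss the list, and near-identical copies share reads. Member totals and counts depend on scaling, window and fold minimum, and promoter counts on the measure ranked. The cause was not tested in any case.

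The scaled total differences (Raf in normoxia -18.8, Raf in hypoxia -21.7, hypoxia in Raf-inactive cells 7.22, hypoxia in Raf-active cells 4.39) kept their direction under each alternative tried, and their size moved as follows. Without scaling they were -0.25, -1.50 and 2.50 in the first 3. With windows of 2 kb Raf in hypoxia gave -17.7 and hypoxia in Raf-active cells 8.12, and with 50 kb the Raf differences were -28.6 and -30.1. At equal list length they were -13.8 and -13.7, at matched depth -12.8 and -16.2. For matched depth no reads were matched. The recovered pileups of listed summits were thinned at random to the lowest background, 3.01, and kept at a −log10 p of at least 5. The background of a library was its most frequent recovered value, found at 22.1 to 30.6% of its summits, so this depth is approximate. With peaks of at least 5-fold all 4 moved, to -4.18, -7.28, 3.96 and 0.862, and at a −log10 q of at least 5 hypoxia in Raf-inactive cells gave 2.86.

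Members called by peaks (36, 38, 0, 12 and, for the interaction, 9) were 18, 17 and, for the interaction, 5 without scaling in the Raf comparisons; 10, 6, 1, 5 and 1 of 18 with 2 kb; and 6, 6, 4, 4 and 4 of 33 at 5-fold. Hypoxia in Raf-inactive cells gave 2 with 50 kb, 1 at the q minimum, 4 at matched depth and 38 by base pairs covered, where the interaction gave 22. Raf in hypoxia gave 18 at equal list length and 18 at matched depth. Promoters called by fold rank (20, 24, 15, 17 and 7) were 32, 39 and 30 by −log10 p, with 25 interactions, and 37, 48, 35 and 40 by pileup. Shares of all genes or promoters stand above for the pileup ranks and for Raf without scaling. They also stand above for hypoxia in Raf-inactive cells by base pairs. For the other settings no share is given, so those counts show the dependence on the setting and no excess among members.

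Leaving out 1 library gave totals of -20.0 to -17.3, -22.7 to -20.1, 5.91 to 8.78 and 3.003 to 5.97, and members called by peaks of 32 to 40, 31 to 39, 0 to 6, 10 to 15 and 5 to 10. By fold rank it gave 19 to 24, 18 to 25, 11 to 16, 10 to 19 and 4 to 9, and by pileup rank 36 to 38, 45 to 48, 32 to 37, 21 to 24 and 36 to 41. The interaction by peaks was 5 without replicate 3 of Raf-inactive hypoxia or replicate 1, 2 or 4 of Raf-active hypoxia. By fold rank hypoxia in Raf-active cells gave 10 without replicate 4 of Raf-active normoxia and 11 without replicate 2 of Raf-active hypoxia, and the interaction 4 without replicate 3 of Raf-active normoxia.

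Directions turned for named members. With 2 kb, H2AC17 gave -0.0594 with hypoxia in Raf-active cells and -0.0998 for the interaction. With 50 kb, Raf in hypoxia gave -0.000889 at H1-4, -0.0945 at H2AC20, -0.0861 at H2AC21 and -0.0502 at H2BC21, hypoxia in Raf-active cells 0.12 at H1-6 and 0.0064 at H4C3, and the interaction 0.18 and 0.0252 there. By base pairs covered, Raf in hypoxia gave -0.15 at H1-4, -0.0866 at H2BC21, H2AC20 and H2AC21 and -0.23 at H2BC5, and the interaction -0.11 at H2AC17, -0.10 at H2BC17, -0.0798 at H2BC12 and H4C9 and -0.14 at H3C12. At 5-fold, the interaction gave 0.13 at H2AC15 and H2BC15, -0.38 at H2AC17 and H2BC17 and -0.44 at H2BC12 and H4C9. There Raf in normoxia gave 0.10 at H2AC17 and H2BC17, Raf in hypoxia -0.000558 at H2BC5, and hypoxia in Raf-active cells -0.30 at H2AC17 and H2BC17, -0.11 at H2BC12 and H4C9 and -0.0112 at H3C10.

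Within 1 kb of a start, hypoxia in Raf-inactive cells gave -0.012 at H4C11 and 0.0397 at H4C2, hypoxia in Raf-active cells 0.20 at H4C12 and 0.028 at H4C2, and the interaction 0.0273 at H4C12. By −log10 p the interaction at H1-4 was -0.17, and Raf gave 0.0758 in normoxia and 0.17 in hypoxia at H2AC25 and H2BC26. By pileup, Raf in hypoxia gave -0.42 at H1-2, -0.16 at H1-4 and -0.13 at H3C7, and Raf gave 0.44 and 0.58 at H2AC25 and H2BC26. The interaction gave -0.51 at H1-4, -0.12 at H2BC3 and -0.22 at H3C6, and hypoxia 0.0278 at H3C6 and 0.14 at H4C2 in Raf-inactive and -0.19 at H4C4 in Raf-active cells.

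Replicate numbers did not pair the libraries: the correlation of same-numbered deviations was -0.039 to 0.014. With the replicate number as a block 36, 38, 0, 12 and 9 members were called by peaks, 20, 24, 16, 15 and 8 by fold rank and 37, 48, 35, 23 and 40 by pileup rank.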
